A study of Mus musculus with 12 samples.

Results

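The genes described here are Trp53, which encodes the tumour suppressor p53, and 8 genes that belong to its family or feed back on it, Mdm2, Mdm4, Ppm1d, Trp53inp1, Sesn1, Sesn2, Trp63 and Trp73. They were taken by symbol from the deposited gene counts, in which all 9 of them were among 26264 gene symbols. Glomerulus-enriched kidney RNA of male mice of the inbred substrain BALB/cAjcl, called Ajcl here, and of its relative BALB/cByJcl, called ByJcl, obtained at 8 weeks of age, was sequenced in 4 groups of 3 libraries. Baseline mice were untreated, and Day 5 mice had received a single intravenous dose of 10 mg/kg adriamycin (ADR, doxorubicin) through the retro-orbital route. Both substrains are BALB/c mice with no transgene named in the labels, and glomeruli were collected by magnetic beads caught in their capillaries. Saline-injected mice at Day 5 are not among the sequenced samples analysed here, so the drug, the injection and the passage of 5 days cannot be told apart. Baseline and Day 5 counts also stand in separate tables, and a difference in how the tables were made cannot be told apart from ADR. The baseline libraries stand for 3 mice per substrain, whether each Day 5 library came from 1 mouse is not given in the sources used here, and p-values measure the spread between these libraries.

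Total counts ranged from 42198416 to 54687045 per library, and 3 counts corresponded to between 0.0549 and 0.0711 CPM, the unit of counts scaled to library size. Ajcl Day 5 replicate 1 was left out of the tests because the study excludes it for reduced glomerular purity, and its values, from a scaling of all 12 libraries together, are given beside the others. The tests therefore used 11 libraries, with 2 in the Ajcl Day 5 group. Podocyte markers marked the preparations in every library, with none of 10 markers at 0 and a summed level of 9908 to 22665 CPM in the 11 libraries. RNA was measured in bulk, so fewer cells of a type and less RNA per cell cannot be told apart in any value below. Levels are CPM scaled with TMM, edgeR's correction of library size, and a gene is called where edgeR's quasi-likelihood test gave a Benjamini-Hochberg adjusted p below 0.05 over the 17002 genes that passed the filter on low counts. Of the 9 genes, 8 passed this filter and Trp73 did not.

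p53 is a transcription factor that is held at a low protein level in unstressed cells and is stabilised after DNA damage, of which doxorubicin is a classic inducer through topoisomerase II. The E3 ligase Mdm2 marks p53 for degradation, Mdm4 binds its activation domain, and the phosphatase encoded by Ppm1d (Wip1) removes activating phosphates from p53 and its kinases. Mdm2 and Ppm1d are themselves transcribed by p53, which closes negative feedback loops, while Trp53inp1 and the sestrins Sesn1 and Sesn2 are p53 targets whose products promote p53 phosphorylation, limit oxidative stress or restrain mTORC1. In this circuit the p53 protein is set largely after translation, and mRNA counts do not measure it.

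Promoter sequence of the genes was read from RefSeq windows that run from 250 bases before to 50 bases after an annotated gene start, in build GRCm38.p6. Windows were held for 7 of the 9 genes, 10 windows in all, and not for Trp53inp1 and Trp63. The windows were searched on both strands for the p53 half-site, the palindromic 10-letter motif that p53 binds in pairs. It was found in 4 windows, 1 each of Trp53, Mdm2, Ppm1d and Sesn1, against 8.36% of all 32851 windows. Windows of Mdm4, Sesn2 and Trp73 did not hold these letters. In each of the 4 matches the central letters were CTTG, a core that 30.8% of the matches in all windows share. The sequences of the feedback gene Mdm2 and of Trp53 are shown over the 250 bases before the start and those of Ppm1d and Sesn1 over 30 bases, each 5′ to 3′ on the strand of the gene and with the half-site in capitals.
Trp53, chr11:69580109-69580358, plus strand: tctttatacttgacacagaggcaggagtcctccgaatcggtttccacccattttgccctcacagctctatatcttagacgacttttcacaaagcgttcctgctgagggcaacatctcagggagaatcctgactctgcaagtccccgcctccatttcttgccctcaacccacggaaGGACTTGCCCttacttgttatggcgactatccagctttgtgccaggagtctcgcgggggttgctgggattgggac
Mdm2, chr10:117710759-117711008, minus strand: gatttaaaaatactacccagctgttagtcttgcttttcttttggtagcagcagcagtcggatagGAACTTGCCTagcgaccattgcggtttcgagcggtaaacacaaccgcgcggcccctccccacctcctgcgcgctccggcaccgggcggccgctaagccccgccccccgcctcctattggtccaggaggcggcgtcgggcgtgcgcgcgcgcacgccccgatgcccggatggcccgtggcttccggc
Ppm1d, chr11:85311112-85311141, plus strand: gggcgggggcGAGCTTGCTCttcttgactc
Sesn1, chr10:41887256-41887285, plus strand: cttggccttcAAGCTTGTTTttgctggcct
The first base of the half-site lay 75 bases before the start in Trp53, 186 in Mdm2, 132 in Ppm1d and 173 in Sesn1, where it was in the second of 2 annotated windows. A match describes the letters and is not evidence of a bound site. Sequence outside these windows was not searched, so a window without a match says nothing of sites elsewhere in the gene.

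Trp53 mRNA was higher at Day 5 than at baseline in ByJcl, where the change passed the test, and was not separated from baseline in Ajcl. The gene lies on chromosome 11 of GRCm39 from 69469669 to 69482701 on the plus strand. Its level at baseline was 45.6, 44.3 and 43.3 CPM in Ajcl and 44.4, 39.8 and 44.1 CPM in ByJcl. At Day 5 it was 88.7, 60.7 and 57.8 CPM in ByJcl, and 39.5 and 58.8 CPM in Ajcl, with 46.8 CPM in the library left out. All ByJcl Day 5 libraries thus lay above all ByJcl baseline libraries, whereas the Ajcl Day 5 libraries lay on both sides of their baseline. Replicate 1 was the highest of the ByJcl Day 5 libraries. The log2 fold change was 0.69 in ByJcl (SE 0.18, adjusted p = 0.0311, edgeR) and 0.15 in Ajcl (SE 0.20, adjusted p = 0.873), with 95% intervals of 0.30 to 1.08 and of -0.28 to 0.58. Averaged over both substrains it was 0.42 (SE 0.13, adjusted p = 0.067). This average was called with DESeq2 (adjusted p = 0.0259) and in edgeR without Ajcl Day 5 replicate 2 (adjusted p = 0.026) or ByJcl Day 5 replicate 3 (adjusted p = 0.0444). Over all 11 fits that leave out a library it ran from 0.26 to 0.54, the lowest without Ajcl Day 5 replicate 3 (adjusted p = 0.391). The ByJcl call was lost when any 1 of 5 ByJcl libraries was left out, each baseline library and Day 5 replicates 1 and 2, with adjusted p between 0.0559 and 0.111. Without Day 5 replicate 1 the log2 fold change was 0.47, and in the other 4 settings it was 0.64 to 0.78.

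**Figure D1:**
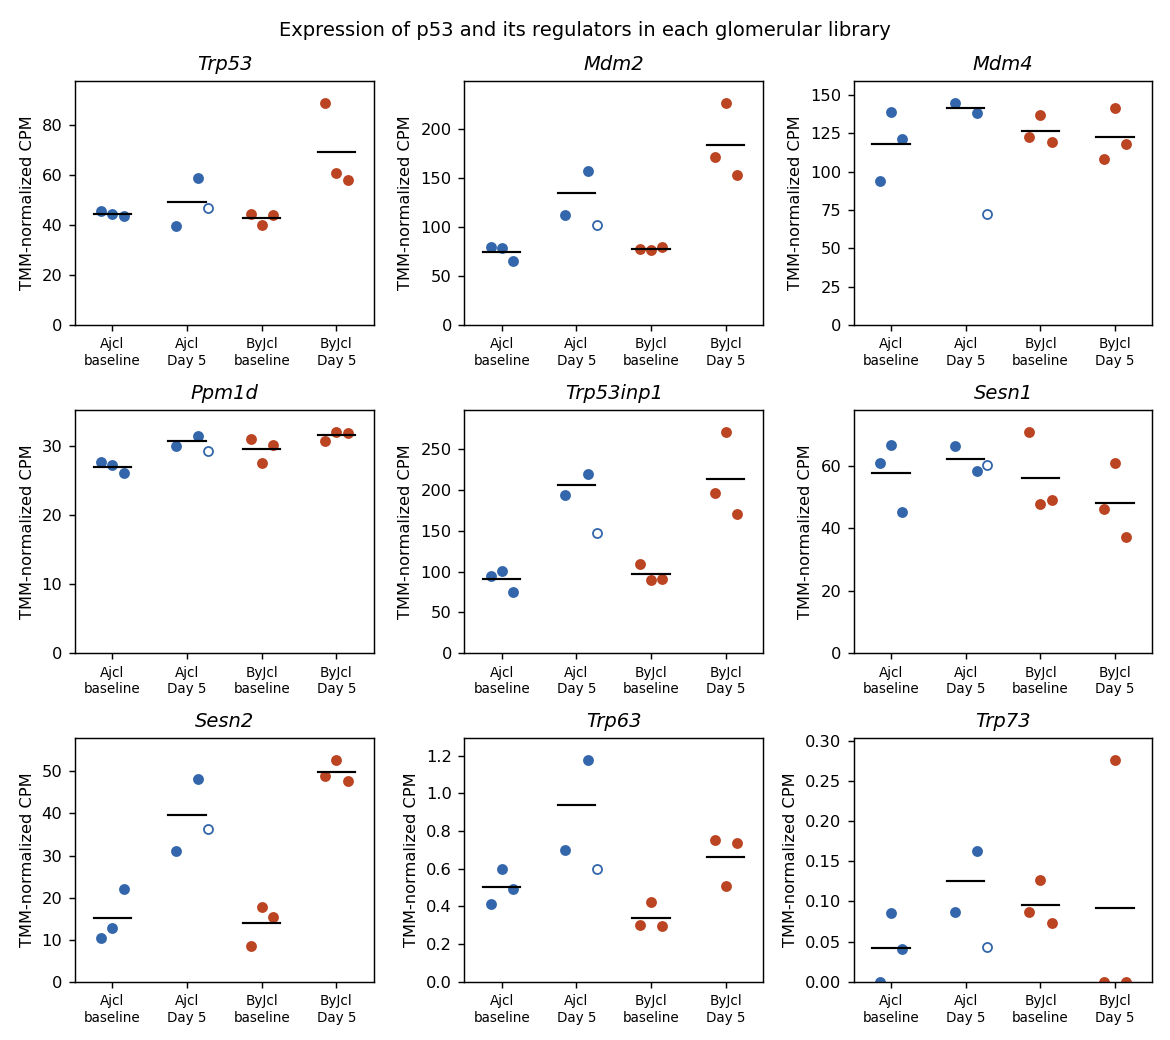
Expression of the 9 genes in each library, in TMM-normalized CPM on linear axes from 0, with 1 panel per gene and the 4 groups on the horizontal axis. Points are libraries, bars are means of the libraries tested, and the open circle is Ajcl Day 5 replicate 1, which was left out of the tests. Mdm2, Trp53inp1 and Sesn2 lie higher at Day 5 in both substrains with no overlap, while Mdm4 and Sesn1 overlap.

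The other genes of the p53 family, Trp63 and Trp73, were close to the limit of detection. Trp63, the regulator of stratified epithelia on chromosome 16 (25502513 to 25710852), had 14 to 58 counts in the 11 libraries. It was at 0.413, 0.597 and 0.495 CPM in Ajcl and 0.304, 0.423 and 0.295 CPM in ByJcl at baseline. Day 5 values were 0.699 and 1.18 CPM in Ajcl, 0.752, 0.506 and 0.735 CPM in ByJcl, and 0.601 CPM in the library left out. Day 5 libraries lay above baseline libraries in each substrain, but edgeR called no comparison, with log2 fold changes of 0.90 in Ajcl (SE 0.42, adjusted p = 0.524, edgeR), 0.96 in ByJcl (SE 0.39, adjusted p = 0.144) and 0.93 on average (SE 0.29, adjusted p = 0.0636). The average was called with DESeq2 (adjusted p = 0.047) and with halved counts in edgeR (adjusted p = 0.0493), an alternative run because most low counts were even. It was called in none of the 11 edgeR fits that leave out a library (adjusted p from 0.0531 to 0.327), and without Ajcl Day 5 replicate 3 the Ajcl value was 0.46. Trp73, on chromosome 4 (154140706 to 154224665), encodes p73. Its counts were 0, 4 and 2 in Ajcl and 4, 6 and 4 in ByJcl at baseline. At Day 5 they were 4 and 8 in Ajcl, 0, 12 and 0 in ByJcl, and 2 in the library left out. A count of 0 allows up to 0.0671 CPM in ByJcl Day 5 replicate 1 at its depth of 44712395 counts, and such limits cover counting error only. All 12 counts of Trp73 were even, and if each read pair was counted as 2 reads the limit is that of 6 counts, 0.134 CPM. A difference in Trp73 was not detectable at this depth.

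Among the negative regulators, Mdm2 rose with ADR while Mdm4 and Ppm1d did not pass the test. Mdm2, the ligase of the core feedback loop, lies on chromosome 10 from 117524780 to 117546730 on the minus strand. Baseline levels were 79.2, 78.1 and 65.2 CPM in Ajcl and 77.8, 76.8 and 79.1 CPM in ByJcl. At Day 5 they were 112 and 157 CPM in Ajcl, 172, 227 and 153 CPM in ByJcl, and 102 CPM in the library left out. Every Day 5 library, the one left out included, lay above every baseline library of both substrains. The log2 fold change was 1.24 in ByJcl (SE 0.16, adjusted p = 0.00185, edgeR), 0.86 in Ajcl (SE 0.18, adjusted p = 0.0905) and 1.05 on average (SE 0.12, adjusted p = 0.000798). The average corresponded to 2.07-fold, with a 95% interval of 1.73 to 2.49. In Ajcl the call depended on the setting, since the adjusted p was 0.164 over 12 libraries, 0.00207 with DESeq2, 0.0321 without Ajcl Day 5 replicate 2 and 0.0475 without ByJcl Day 5 replicate 2.

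Mdm4 encodes the Mdm2 partner that represses p53 activity and lies on chromosome 1 from 132887222 to 132958299. Its baseline levels of 93.7, 139 and 121 CPM in Ajcl and 123, 137 and 119 CPM in ByJcl were the most spread of the negative regulators. Day 5 libraries stood at 145 and 138 CPM in Ajcl and at 108, 141 and 118 CPM in ByJcl, and the library left out was lower than the other Day 5 libraries at 72.6 CPM. The groups overlapped in both substrains. The log2 fold change was 0.26 in Ajcl (SE 0.16, adjusted p = 0.674, edgeR) and -0.04 in ByJcl (SE 0.14, adjusted p = 0.882), with 95% intervals of -0.09 to 0.62 and of -0.36 to 0.28. These intervals exclude a rise of the size seen for Mdm2 in ByJcl.

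Ppm1d, on chromosome 11 from 85202017 to 85239268, varied little. It was at 27.7, 27.3 and 26.2 CPM in Ajcl and 31.0, 27.6 and 30.2 CPM in ByJcl at baseline. Day 5 levels were 30.0 and 31.4 CPM in Ajcl, 30.7, 32.1 and 32.0 CPM in ByJcl, and 29.3 CPM in the library left out. Ajcl Day 5 libraries lay above Ajcl baseline libraries by a small margin, and in ByJcl the groups overlapped. Its log2 fold change was 0.18 in Ajcl (SE 0.10, adjusted p = 0.613, edgeR) and 0.09 in ByJcl (SE 0.09, adjusted p = 0.553). Averaged over the substrains the 95% interval was -0.01 to 0.29, so that an increase above 1.22-fold lay outside it.

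Of the p53 targets that act back on stress signalling, Trp53inp1 and Sesn2 rose and Sesn1 was not called. Trp53inp1 encodes a nuclear body and autophagy protein that promotes p53 phosphorylation by HIPK2, and lies on chromosome 4 from 11156412 to 11175230. Baseline levels were 95.1, 101 and 75.1 CPM in Ajcl and 109, 90.2 and 91.2 CPM in ByJcl. At Day 5 they were 193 and 220 CPM in Ajcl, 196, 271 and 171 CPM in ByJcl, and 147 CPM in the library left out. The Day 5 libraries of both substrains lay above all baseline libraries. It was the 1 gene of the 9 called in both substrains, with log2 fold changes of 1.19 in Ajcl (SE 0.19, adjusted p = 0.0298, edgeR) and 1.13 in ByJcl (SE 0.17, adjusted p = 0.00348), and 1.16 on average (SE 0.13, adjusted p = 0.000679), which was 2.24-fold. The Ajcl call was lost over 12 libraries (1.04, adjusted p = 0.0549) and when any 1 of 5 libraries was left out, namely each Ajcl baseline library, Ajcl Day 5 replicate 3 or ByJcl baseline replicate 3, with log2 fold changes of 1.08 to 1.28 and adjusted p between 0.0613 and 0.43.

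The sestrin genes encode stress-induced inhibitors of mTORC1. Sesn2, on chromosome 4 from 132219335 to 132237815, was the gene of the 9 with the largest fitted change in each substrain. It was at 10.5, 12.8 and 22.0 CPM in Ajcl and 8.55, 17.8 and 15.5 CPM in ByJcl at baseline. Day 5 levels were 31.2 and 48.3 CPM in Ajcl, 48.9, 52.7 and 47.8 CPM in ByJcl, and 36.4 CPM in the library left out. The lowest Day 5 library lay above the highest baseline library, Ajcl replicate 3. In ByJcl the log2 fold change was 1.84 (SE 0.31, adjusted p = 0.00572, edgeR), in Ajcl 1.40 (SE 0.33, adjusted p = 0.144) and on average 1.62 (SE 0.23, adjusted p = 0.00187), or 3.06-fold with a 95% interval of 2.17 to 4.34. DESeq2 called it in Ajcl too, at an adjusted p of 0.00511.

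Sesn1, on chromosome 10 from 41685931 to 41784423, was at 60.8, 66.8 and 45.2 CPM in Ajcl and 71.0, 47.9 and 49.3 CPM in ByJcl at baseline. Day 5 libraries stood at 66.3 and 58.2 CPM in Ajcl, 46.1, 60.9 and 37.3 CPM in ByJcl, and 60.3 CPM in the library left out. The groups overlapped in both substrains. The log2 fold change was 0.11 in Ajcl (SE 0.23, adjusted p = 0.919, edgeR) and -0.22 in ByJcl (SE 0.21, adjusted p = 0.551), and the 95% interval of the average, -0.40 to 0.29, excludes a change of the size of Sesn2. Their paralog Sesn3, a FoxO target, was at 9.42, 15.5 and 14.7 CPM in Ajcl and 16.1, 13.2 and 13.6 CPM in ByJcl at baseline. In ByJcl it was at 5.95, 9.17 and 8.88 CPM at Day 5, below all ByJcl baseline libraries, and fell by 0.84 on the log2 scale (SE 0.22, adjusted p = 0.0336, edgeR). In Ajcl it was at 14.4 and 13.0 CPM at Day 5, within the baseline range, with a log2 fold change of 0.05 (SE 0.24, adjusted p = 0.963), and at 4.12 CPM in the library left out. Trp53inp2, the paralog of Trp53inp1, fell by 0.31 on average (log2 scale, SE 0.07, adjusted p = 0.0229).

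**Figure D2:**
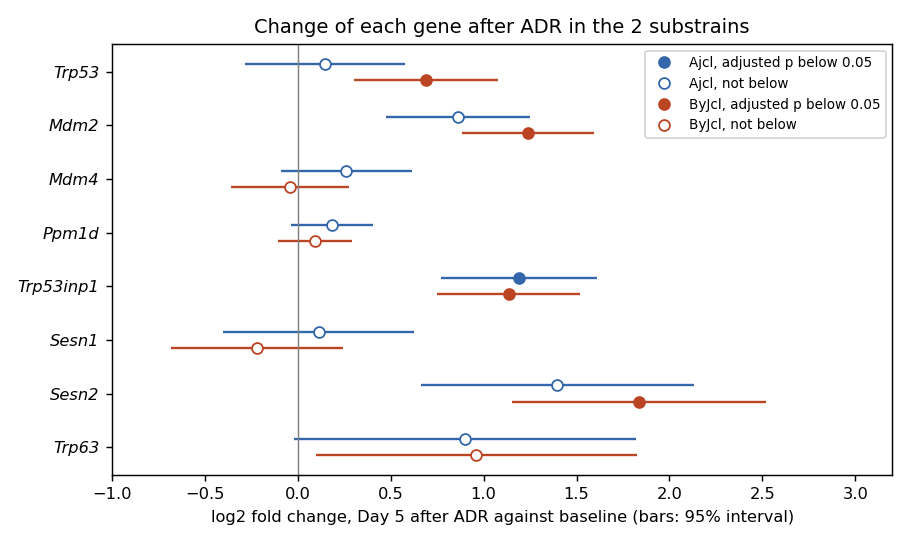
Log2 fold change from baseline to Day 5 after ADR for the 8 genes tested, in Ajcl and in ByJcl, with 95% intervals from edgeR's quasi-likelihood fit. Filled points have an adjusted p below 0.05, which in Ajcl is Trp53inp1 and in ByJcl Trp53, Mdm2, Trp53inp1 and Sesn2.

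Counted over the 8 genes tested, 1 was called higher in Ajcl, against 0.306% of all genes called higher (0.312% in either direction). In ByJcl 4 were called higher, against 5.75% of all genes (10.6% in either direction), and on average over the substrains 3, against 6.29% (10.4% in either direction). None was called lower, against 0.00588%, 4.83% and 4.15% of all genes in the same order. Day 5 libraries lay above baseline libraries without overlap for 5 genes in Ajcl, against 13.6% of all genes, and for 5 in ByJcl, against 17.3%. With DESeq2 the members called were 3 in Ajcl, 4 in ByJcl and 5 on average, each higher, against 1.44%, 8.95% and 8.57% of all genes called higher. The summed level of 10 podocyte markers went in the same comparisons from 15649 to 21478 CPM at baseline to 12732 to 16613 CPM at Day 5 in Ajcl and from 19654 to 22665 CPM to 9908 to 13862 CPM in ByJcl. Of the 10 markers, 9 were called lower and 1 higher in ByJcl, and none in Ajcl. Proximal tubule markers (8 genes) summed to 1056 to 3802 CPM and 1528 to 2069 CPM in Ajcl, and 408 to 1889 CPM and 373 to 1647 CPM in ByJcl, with none called. Immune markers (8 genes) summed to 24.7 to 44.7 CPM and 14.9 to 52.7 CPM in Ajcl, and 54.8 to 95.4 CPM and 63.7 to 120 CPM in ByJcl, with 1 called higher in ByJcl. Endothelial markers (8 genes) summed to 7053 to 7892 CPM and 6737 to 7138 CPM in Ajcl, and 7816 to 9280 CPM and 5151 to 7436 CPM in ByJcl, where the groups did not overlap and 2 were called lower. Markers of mesangium and smooth muscle, 7 of which were tested, overlapped between baseline and Day 5 in both substrains, with 1 called higher in ByJcl. Markers of proliferating cells (8 genes) summed to 13.6 to 15.9 CPM and 5.83 to 17.4 CPM in Ajcl, and 13.6 to 15.1 CPM and 7.71 to 32.6 CPM in ByJcl, and those of the distal nephron (6 genes) overlapped too, with none called in either list. Whether these marker changes reflect cell makeup, and their part in the changes of the p53 genes, was not tested.

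The substrains were compared with each other at baseline, at Day 5 and in their response, the questions the design poses. At baseline none of the 8 genes was called, against 0.159% of all genes, and none had an unadjusted p below 0.05. Log2 fold changes of ByJcl over Ajcl ran from -0.56 for Trp63 to 0.13 for Ppm1d, and the libraries of the substrains overlapped for each of the 8, while they did not overlap for 14.5% of all genes. For Trp53 the 95% interval of the baseline difference was -0.44 to 0.33, and for Mdm2 -0.28 to 0.42.

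At Day 5 none was called either, against 0.165% of all genes, and the libraries of the substrains overlapped for each, against no overlap for 33.4% of all genes. Trp53 and Mdm2 had unadjusted p below 0.05, with a log2 fold change of ByJcl over Ajcl of 0.49 for Trp53 (SE 0.20) and 0.45 for Mdm2 (SE 0.18), both at an adjusted p of 0.315 with edgeR. In both genes 1 Ajcl library reached into the ByJcl range, at 58.8 CPM against a lowest ByJcl value of 57.8 for Trp53 and at 157 CPM against 153 for Mdm2. When a library was left out, these differences ran from 0.24 without Ajcl Day 5 replicate 2 to 0.81 without Ajcl Day 5 replicate 3 for Trp53, and in the same settings from 0.23 to 0.71 for Mdm2, none of them called. The interaction, which asks whether the response to ADR differed between the substrains, was called for none of the 8 genes and for 0% of all genes, 0 of 17002, while 1363 genes had an unadjusted p below 0.05 and DESeq2 called 22. For Trp53 it was 0.54 on the log2 scale (SE 0.26, 95% interval -0.04 to 1.12, adjusted p = 0.634, edgeR), and for Mdm2 0.38 (SE 0.24, 95% interval -0.15 to 0.90, adjusted p = 0.694). In the same settings the interaction ran from 0.31 to 0.88 for Trp53 and from 0.18 to 0.66 for Mdm2, again with no call. The Trp53 call in ByJcl and its absence in Ajcl are therefore not a shown difference between the substrains, and with 2 libraries in an arm the intervals leave room for a sizeable one. Between the substrains the summed immune markers did not overlap at baseline, at 24.7 to 44.7 CPM in Ajcl and 54.8 to 95.4 CPM in ByJcl, nor at Day 5, at 14.9 to 52.7 CPM and 63.7 to 120 CPM. Distal nephron markers summed to 534 to 1612 CPM in Ajcl and 138 to 543 CPM in ByJcl at baseline, and to 826 to 1099 CPM and 96.9 to 513 CPM at Day 5, where they did not overlap. The sums of the other 5 marker lists overlapped between the substrains at both times, and of the markers of all 7 lists 1 was called, a mesangium and smooth muscle marker higher in ByJcl at Day 5. The part of these differences in the comparisons of the substrains was not tested.

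Counts of each negative regulator per Trp53 count, taken within a library, do not depend on how libraries are scaled. Mdm2 had 1.74, 1.76 and 1.50 counts per Trp53 count in Ajcl and 1.75, 1.93 and 1.80 in ByJcl at baseline. At Day 5 the ratio was 2.85 and 2.68 in Ajcl, 1.94, 3.74 and 2.65 in ByJcl, and 2.18 in the library left out. Each Day 5 library thus had more Mdm2 per Trp53 than each baseline library of its own substrain. ByJcl Day 5 replicate 1, the library with the highest Trp53, had the lowest ratio of the Day 5 libraries. Trp53 is the divisor of this ratio, and Mdm2 in that library was at 172 CPM, between the 227 and 153 CPM of the other ByJcl Day 5 libraries. The log2 ratio rose by 0.64 from baseline to Day 5, with p = 0.005 in a two-sided exact permutation test within substrains, the smallest that 200 arrangements can give, and 0.015 adjusted over the 3 ratios. The call was lost when any 1 of the 6 baseline libraries was left out, with a difference of 0.61 to 0.66. Without an Ajcl baseline library the exact permutation p was 0.0167, the smallest that 120 arrangements can give, and 0.05 adjusted. Without a ByJcl baseline library it was 0.02 to 0.03, above the 0.01 that 100 arrangements can give, and 0.06 to 0.09 adjusted. Mdm4 per Trp53 was 2.66 ± 0.548 in Ajcl (SD, n = 3) and 2.97 ± 0.412 in ByJcl (SD, n = 3) at baseline, and 3.00 ± 0.930 (SD, n = 2) and 1.87 ± 0.577 (SD, n = 3) at Day 5. In ByJcl the 3 Day 5 ratios of 1.22, 2.33 and 2.05 lay below the 3 baseline ratios of 2.76, 3.45 and 2.71, and in Ajcl the groups overlapped. The difference over both substrains was -0.28 on the log2 scale (exact permutation p = 0.325, adjusted 0.325).

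The Ppm1d ratio was tight at baseline, at 0.609 ± 0.00585 in Ajcl and 0.692 ± 0.00618 in ByJcl (SD over 3 libraries each). At Day 5 it was 0.346, 0.529 and 0.554 in ByJcl, below the ByJcl baseline, and 0.760 and 0.534 in Ajcl, on both sides of the Ajcl baseline. Its difference was -0.25 (exact permutation p = 0.24, adjusted 0.325). In ByJcl the log2 fold change of the divisor Trp53 was 0.69, against 0.09 for Ppm1d and -0.04 for Mdm4, so the lower ratios of both go with the change of Trp53 given above.

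**Figure D3:**
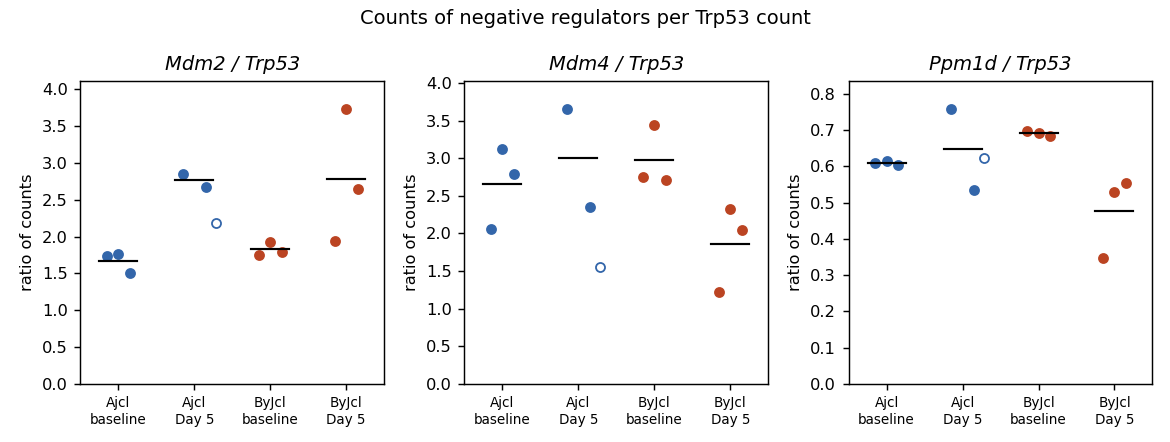
Counts of Mdm2, Mdm4 and Ppm1d divided by the Trp53 count of the same library, on linear axes from 0, for the 4 groups. Points are libraries, bars are means of the libraries tested, and the open circle is Ajcl Day 5 replicate 1. Mdm2 per Trp53 rises from means of 1.67 and 1.83 at baseline in Ajcl and ByJcl to 2.76 and 2.78 at Day 5.

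Levels were compared between the genes only per length, as TPM, counts scaled to exonic length and library size, over the exons of GENCODE release 39 (GRCm39). At baseline, over 6 libraries, Trp53inp1 stood highest at 72.4 ± 8.40 TPM (SD), followed by Sesn1 at 64.0 ± 11.9 TPM and Mdm2 at 56.0 ± 3.69 TPM, each overlapping its neighbour. A middle group held Ppm1d at 34.1 ± 2.02 TPM, Mdm4 at 34.1 ± 4.73 TPM and Trp53 at 33.6 ± 1.65 TPM, which also overlapped. Sesn2 lay below them at 18.2 ± 6.39 TPM, apart from Trp63 at 0.286 ± 0.0815 TPM and Trp73 at 0.0707 ± 0.0442 TPM. The length is that of all annotated exons, 20386 bases for Mdm4 against 4540 to 8391 for the other genes. The level of any gene per length, Trp53 with 7379 bases included, is an underestimate where the transcripts used are shorter. The order of the genes therefore holds for these lengths only, and transcripts used were not measured. At Day 5 Sesn2 reached 51.9 ± 15.8 TPM in Ajcl (SD, n = 2) and 61.2 ± 2.62 TPM in ByJcl (SD, n = 3), beside Trp53 at 39.5 ± 11.03 TPM and 52.2 ± 12.6 TPM.

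Several of these genes share bases with a neighbour on the opposite strand. Exons of Trp53 overlap those of Wrap53, which encodes a telomerase RNA binding protein, over 263 bases and those of the RNA Gm57392 over 156 bases, those of Sesn1 overlap Cep57l1 over 548 bases, those of Mdm2 the RNA Gm56970 over 348 bases and those of Trp73 its antisense RNA Trp73os over 280 bases. The libraries were strand-specific, but the strand setting of the counting is not given in the sources used here, and reads from such stretches may be split or lost. Wrap53 was at 12.3, 11.6 and 9.21 CPM in Ajcl and 13.9, 11.2 and 11.7 CPM in ByJcl at baseline. At Day 5 it was at 10.9 and 7.58 CPM in Ajcl and 8.43, 9.84 and 10.6 CPM in ByJcl, with log2 fold changes of -0.26 (adjusted p = 0.766, edgeR) and -0.35 (adjusted p = 0.251). Wrap53 was not called in either substrain. Cep57l1 had a log2 fold change of -0.32 on average (SE 0.15, adjusted p = 0.222).

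Downstream of p53, a list of 40 of its transcriptional targets other than the genes above was read beside them. All 40 were tested, and on average over the substrains 28 were called higher and 0 lower, 70% of the list against 10.4% of all genes, with a median log2 fold change of 0.67 against -0.0042 over all genes tested. Without Ajcl Day 5 replicate 3, 17 were called higher, while the calls over all genes went from 1774 to 531. By substrain, 9 were called higher in Ajcl (median 0.64), against 0.306% of all genes, and 25 in ByJcl (median 0.86), against 5.75%, and none lower. These counts are not a shown difference between the substrains with edgeR over the 11 libraries. There 0 of the 40 were called between them at Day 5 (34 above 0, median 0.29) and 0 in the interaction (30 above 0, median 0.37). Without Ajcl Day 5 replicate 3 it was 5 in Ajcl, while the calls over all genes went from 53 to 11, and without ByJcl baseline replicate 2 it was 16 in ByJcl, while they went from 1800 to 730. Among the alternatives that leave out no library, 1 setting called 2 of the 40 higher in ByJcl than in Ajcl at Day 5, and 1 setting called 1 higher in the interaction. The targets named for their small adjusted p are Cdkn1a, Ccng1, Psrc1 and Eda2r. Phlda3, an inhibitor of AKT signalling, had the same adjusted p as Eda2r (log2 fold change 2.83, SE 0.17, adjusted p = 7.3e-06, edgeR). Cdkn1a, the p21 inhibitor of cyclin-dependent kinases, went from 27.1 ± 5.13 to 415 ± 199 CPM in Ajcl (SD, n = 3 and 2) and from 22.0 ± 1.75 to 725 ± 204 CPM in ByJcl (SD, n = 3 each), a log2 fold change of 4.49 on average (SE 0.21, adjusted p = 1.44e-06, edgeR). Ccng1, a cyclin that recruits a phosphatase to Mdm2, rose from 134 ± 14.4 to 428 ± 39.3 CPM in Ajcl and from 115 ± 7.46 to 495 ± 51.2 CPM in ByJcl, by 1.89 on the log2 scale (SE 0.09, adjusted p = 1.44e-06). Psrc1, a microtubule protein, and Eda2r, a receptor of the tumour necrosis factor family, rose by 5.24 (SE 0.25, adjusted p = 1.44e-06) and 4.56 (SE 0.27, adjusted p = 7.3e-06). Each of these 5 was called in both substrains. Mdm2, Trp53inp1 and Sesn2 changed 2.07-fold to 3.06-fold, and Cdkn1a, Ccng1, Psrc1 and Eda2r 3.70-fold to 37.7-fold. These 4 targets were picked for their small adjusted p in this contrast, so their larger changes do not describe the list of 40. On average over the substrains the median log2 fold change was 0.67 for the 40 targets and 0.67 for the 8 tested genes of p53 and its regulators.

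Upstream of p53, 37 kinases, acetylases, ligases and binding proteins that act on the p53 protein were read in the same way. On average over the substrains 1 was called higher and 2 lower, 8.11% of the list against 10.4% of all genes, and the median log2 fold change was -0.10. Without a library the number called lower on average ran from 1 to 5, the highest without Ajcl baseline replicate 1. The gene called higher was Ppp1r13l, which encodes the inhibitor iASPP that binds p53. It went from 7.33 ± 0.514 to 13.8 ± 5.80 CPM in Ajcl and from 7.68 ± 0.663 to 26.0 ± 9.24 CPM in ByJcl, by 1.34 on the log2 scale (SE 0.20, adjusted p = 0.00228, edgeR). Those called lower were Kmt5a, a methyltransferase of histone H4 and p53, which fell by 0.50 (SE 0.08, adjusted p = 0.00394), and Mapk14, the p38 kinase, which fell by 0.35 (SE 0.09, adjusted p = 0.031). In Ajcl alone none of the 37 was called, and in ByJcl 1 was called higher and 7 lower, 21.6% against 10.6% of all genes. Between the substrains, 1 was called higher in ByJcl at baseline, 2.7% against 0.159% of all genes, and none at Day 5 or in the interaction. That baseline call was lost in 3 of the 11 fits that leave out a library. Among alternatives that leave out no library, 1 setting called 1 lower at Day 5 than at baseline in Ajcl. The number called lower in ByJcl was 0 over 12 libraries and ran from 0 to 10 without a library, with 0 without ByJcl baseline replicate 1 or 2 or Day 5 replicate 2, 2 without Day 5 replicate 3, and 3 without baseline replicate 3 or Day 5 replicate 1. The 7 were Kmt5a and Mapk14 with Atm, Prkdc, Setd7, Trp53bp1 and Trp53bp2, named after their values were seen. Trp53bp1, a DNA break mediator, went from 70.9 ± 2.43 to 49.5 ± 1.94 CPM and Trp53bp2, a p53-binding cofactor also known as ASPP2, from 102 ± 3.53 to 77.6 ± 4.77 CPM in ByJcl (SD, n = 3 each), falling by 0.52 (SE 0.15, adjusted p = 0.0476) and by 0.40 (SE 0.10, adjusted p = 0.0273). In Ajcl their log2 fold changes were -0.12 (adjusted p = 0.873) and 0.14 (adjusted p = 0.748).

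**Figure D4:**
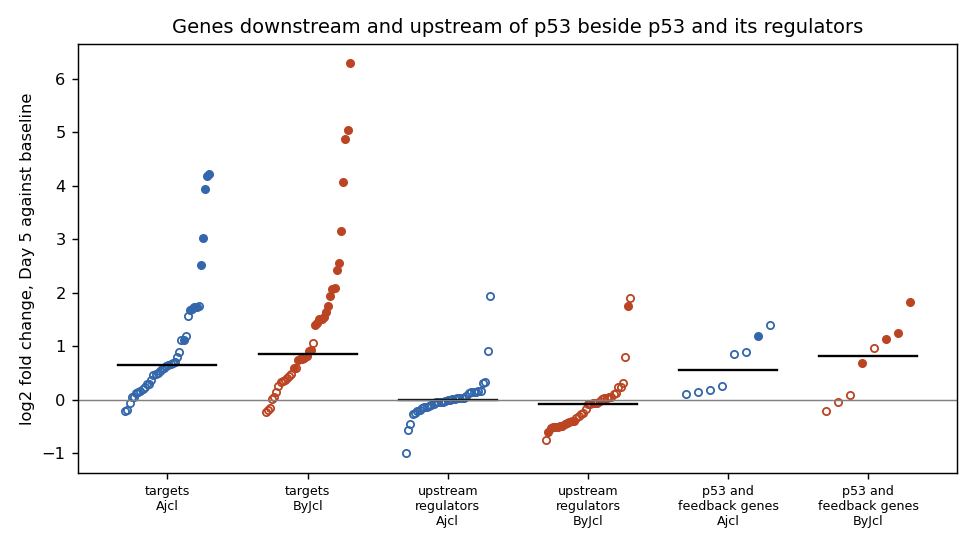
Log2 fold change from baseline to Day 5 in each substrain for 40 p53 target genes, 37 upstream regulators of the p53 protein and the 8 tested genes of p53 and its feedback regulators, sorted within each column. Filled points have an adjusted p below 0.05 in edgeR's quasi-likelihood test, open points do not, and black bars are medians, which lie at 0.64 and 0.86 for targets, -0.01 and -0.08 for upstream regulators and 0.56 and 0.83 for p53 and its feedback regulators in Ajcl and ByJcl.

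The pattern of Trp53 and of Mdm2 over the 11 libraries was compared with that of every other tested gene by the root mean square difference of centred log2 CPM, where 0 is an identical pattern. The genes most like Trp53 were Psme1, an activator subunit of the proteasome, Nubp1, an iron-sulphur assembly factor, and Car7, a carbonic anhydrase, at 0.115, 0.123 and 0.132, beside a spread of 0.335 for Trp53 itself. Psme1 went from 79.7 to 83.6 CPM in Ajcl and from 81.6 to 128 CPM in ByJcl between the group means. The genes most like Mdm2 were Map3k8, a kinase of the ERK cascade, at 0.0928, Acer2, an alkaline ceramidase, at 0.129 and Cebpd, a transcription factor, at 0.133, beside a spread of 0.585 for Mdm2 itself. Map3k8 went from 10.6 to 19.3 CPM in Ajcl and from 11.7 to 26.0 CPM in ByJcl. Among the 9 genes Trp53inp1 came nearest to Mdm2, at 0.179 and in place 15 of all genes, whereas Trp53 stood at 0.385 and Mdm4 at 0.578. These are descriptions over libraries that share groups and depth.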

How the data were processed

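The values are raw gene counts of 12 libraries, which the authors deposited as whole-number counts in 2 tables after trimming with Trimmomatic, alignment to GRCm39 with STAR and counting with featureCounts, per the labels. The annotation and the strand setting of the counting are not given in the sources used here. Most low counts were even, 77.1% to 82.9% of counts from 1 to 49 in each library, and halved counts were therefore run as an alternative. Counts were analysed in R 4.3.3 with edgeR 4.0.16 (TMM, filterByExpr by the 4 groups, 1 coefficient per group, glmQLFTest), as fixed from the study's groups, over 11 libraries and 6 contrasts, with Benjamini-Hochberg adjustment over 17002 genes and a threshold of 0.05. The common dispersion was 0.0521 with 7 residual degrees of freedom. DESeq2 1.42.0, the tool of the study, was an alternative. The pipeline was tested on simulated counts with known changes. Ratios to Trp53 were compared by exact permutation within substrains, adjusted over 3 ratios. Depth of 42198416 to 54687045 counts gives a floor of 3 counts, 0.0549 to 0.0711 CPM, to which Trp63 and Trp73 came closest among the 9 genes.

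The 9 genes, the lists of 40 targets, 37 upstream regulators and cell type markers, and the tests were chosen with earlier results of these data known. Named genes are all 9 members, from each list in each direction the 4 called genes of lowest adjusted p on average over the substrains, the 3 genes most like Trp53 and Mdm2, overlapping genes and the paralogs Sesn3 and Trp53inp2. Genes outside this rule are Atm, Prkdc, Setd7, Trp53bp1, Trp53bp2, Phlda3 and the 6 further symbols that begin with Trp53, chosen after their values were seen. Gene positions and lengths come from GENCODE release 39. Figures were drawn with matplotlib 3.10.9.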

Additional observations from a re-analysis of the deposited data

Results flagged for a closer look

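The library left out of the tests, Ajcl Day 5 replicate 1, was read on its own against the 3 untreated Ajcl libraries, with all 12 libraries scaled together. In 6 of the 9 genes it lay above each of the 3, as it did for 36.4% of the 17002 genes tested, while it lay below each for 35.5%. These were Trp53 at 46.8 CPM, Mdm2 at 102 CPM, Ppm1d at 29.3 CPM, Trp53inp1 at 147 CPM, Sesn2 at 36.4 CPM and Trp63 at 0.601 CPM, the last from 1 library of few counts. For Mdm2, Ppm1d, Trp53inp1 and Trp63 it also lay below both of the other Ajcl Day 5 libraries. A single library gives no test, and groups of 3 were not examined for outlying libraries.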

How the results depend on the processing

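Alternatives were RLE size factors, total counts without TMM, other filters on low counts, 12 libraries, the replicate numbers as a block, halved counts, only the groups compared, DESeq2 and leaving out each library. The number of p53 genes called in Ajcl was 1 and became 2 with no filter on low counts, 0 over 12 libraries, 0 with the replicate block and 3 with DESeq2, and lay between 0 and 2 without a library. On average over the substrains it was 3 and became 5 with DESeq2. In ByJcl it stayed at 4, or between 3 and 4 without a library. The cause of these moves was not tested. Between the deviations of same-numbered libraries, 4 of 15 correlations were above 0.1, with a range of -0.238 to 0.374. With 2 or 3 libraries per group these correlations cannot decide whether the numbers pair the libraries. Under the block, Trp53inp1 in Ajcl was no longer called (1.24, adjusted p = 0.052, edgeR) and Trp53 was called on average over the substrains (adjusted p = 0.048), and the upstream regulators called lower went from 7 to 4 in ByJcl and from 2 to 1 on average. The substrain difference of Trp53inp1 at Day 5 was 0.04 and reversed to -0.0090 under the block.

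Other reversals were of small differences that passed no threshold. Over 12 libraries Mdm4 turned to -0.0049 in Ajcl, to -0.017 on average and to 0.05 between the substrains at Day 5, and the Trp53inp1 interaction turned to 0.11. With total counts, Mdm4 in ByJcl turned to 0.00024 and the Day 5 substrain difference of Ppm1d to -0.00053. Leaving out a library moved the log2 fold change across 0 for Trp53 in Ajcl (-0.18 to 0.39, negative without Ajcl Day 5 replicate 3), Sesn1 in Ajcl (-0.024 to 0.23) and on average (-0.16 to 0.050), and Mdm4 in ByJcl (-0.16 to 0.044). It did so at baseline between the substrains for Mdm2 (-0.014 to 0.11), Mdm4 (-0.070 to 0.23), Trp53inp1 (-0.017 to 0.19), Sesn1 (-0.25 to 0.080) and Sesn2 (-0.36 to 0.26), at Day 5 for Trp53inp1 (-0.17 to 0.18), and in the interaction for Trp53inp1 (-0.27 to 0.11) and Trp63 (-0.24 to 0.50). The log2 ratio of Mdm2 to Trp53 lay between 0.52 and 0.76 without a library, the ratio of Mdm4 between -0.44 and -0.12 and that of Ppm1d between -0.38 and -0.13. The Mdm2 ratio passed the threshold in 5 of these 11 settings, and that of Ppm1d passed it in 1, without Ajcl Day 5 replicate 2 (-0.38, exact permutation, adjusted p = 0.0188). The number of target genes called higher in Ajcl, 9, lay between 7 and 16 under the alternatives that leave out no library, the largest with DESeq2, and between 5 and 11 without a library, the lowest without Ajcl Day 5 replicate 3. In ByJcl, 25 became 20 to 29 and, without a library, 16 to 24, the lowest without ByJcl baseline replicate 2. On average, 28 became 23 to 30 and, without a library, 17 to 27, the lowest without Ajcl Day 5 replicate 3. Without ByJcl Day 5 replicate 1, 1 target gene was called lower on average. Of all genes, 53 were called in Ajcl, between 26 and 301 under the alternatives other than leaving out a library and between 11 and 180 without a library. In ByJcl 1800 were called, 1197 to 2694 and 680 to 2056 in the same order. At Day 5 between the substrains the count of 28 became 6 with only the groups compared, 535 with DESeq2 and 9 to 218 without a library, and at baseline 27 became 101 with DESeq2 and 12 to 29 without a library. Depth limits Trp63 and Trp73, which had few counts.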

Other observations

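Beside the genes above, 6 further symbols of the deposited table begin with Trp53, and they are named after their values were seen. The long non-coding RNA Trp53cor1, which stands beside Cdkn1a and is a known p53 target, had 0, 0 and 5 counts in Ajcl and 2, 8 and 6 counts in ByJcl at baseline. At Day 5 it had 60 and 93 counts in Ajcl, 71, 80 and 70 counts in ByJcl, and 41 counts in the library left out. Every Day 5 library was above every baseline library, and the gene was called in Ajcl (adjusted p = 0.0257, edgeR), in ByJcl (adjusted p = 0.00696) and on average (adjusted p = 0.000866), with fitted log2 fold changes that rest on few baseline counts. Trp53i11 had a log2 fold change of 0.50 on average (SE 0.15, adjusted p = 0.0533, edgeR), while Trp53i13, Trp53rka, Trp53rkb and Trp53tg5 lay between -0.11 and 0.10 and were not called.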
